A study of Mus musculus with 7 samples.

Results

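The enzymes that hydroxylate collagen inside the cell and crosslink it outside were examined in whole hearts of mdx mice, which lack dystrophin and serve as a model of Duchenne muscular dystrophy. The group held 10 genes, the lysyl oxidases Lox, Loxl1, Loxl2 and Loxl3, the lysyl hydroxylases Plod1, Plod2 and Plod3, the prolyl 4-hydroxylase subunits P4ha1 and P4ha2, and the transglutaminase Tgm2. A probe set was taken when the platform annotation gave it exactly 1 gene and that gene was on this list, which yielded 20 of 45037 probe sets and 9 of 18193 genes. Loxl2 had no such probe set, since both of its probe sets are also annotated to Gm21451, so that no value is given for it. Hearts came from 4 mice carrying Myh6-cre and deleted IKKβ (mdx HRTΔIKKβ) and from 3 mice with floxed IKKβ, for which no Cre is listed (mdx IKKβf/f). All mice carried mdx, were 7 months old and, per the methods of the study, were male and derived from C57BL/10 ScSn mdx stock. The Myh6 promoter drives Cre in cardiomyocytes, so that IKKβ is left intact in the other cells of the heart, and the arrays read RNA of all cells together. There was 1 Affymetrix array for each heart, and values are log2 after robust multi-array average (RMA) normalization. Values of different probe sets are not compared with each other, since each has its own affinity.

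Collagen is modified in steps. In the endoplasmic reticulum, prolyl 4-hydroxylases make the hydroxyproline that stabilizes the collagen helix, and lysyl hydroxylases make the hydroxylysine on which sugars and the most stable crosslinks are built. After secretion, lysyl oxidases convert lysine and hydroxylysine of collagen and elastin to aldehydes that condense into crosslinks, and transglutaminase joins glutamine to lysine side chains in the matrix. In the heart most of this machinery is known from fibroblasts, with transglutaminase also abundant in endothelial cells and macrophages.

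On these arrays the mean of 8 of the 9 measured genes was higher in mdx HRTΔIKKβ hearts than in mdx IKKβf/f hearts, with Plod2 as the exception, against 47.7% of all genes. The median difference over the 9 genes was 0.18 on the log2 scale, against -0.01 over all genes. Lox (0.61 ± 0.23, SE of the limma fit), P4ha1 (0.46 ± 0.16) and Loxl1 (0.41 ± 0.24) lay farthest from 0. After Benjamini-Hochberg adjustment no member passed in limma, with adjusted p-values of 0.796 to 0.931, and the share of all probe sets that passed was 0%. With unadjusted p-values under 0.05, there were 3 members on the higher side (Lox, P4ha1 and Tgm2) and 0 on the lower, against 3.25% and 2.95% of all genes. The groups did not overlap in 3 members, Lox, Plod3 and P4ha1, all higher in mdx HRTΔIKKβ hearts, where 3.05% of all genes were higher and 2.62% lower without overlap. With each gene read from its probe set of highest mean, Lox alone reached 1.5-fold, as did 1.14% of all genes in that direction. Among the other probe sets of the members, the second of Lox (1.65-fold) and the second of P4ha1 (1.504-fold) also reached it. With the methods' t-test all 3 calls were lost, and the count was 0. The count in limma depended on single hearts. It was 0 without mdx IKKβf/f replicate 1, 1 without mdx HRTΔIKKβ replicate 1 or 2 or without mdx IKKβf/f replicate 2 or 3, and 5 without mdx HRTΔIKKβ replicate 3. In a bulk sample, a lower value can mean fewer cells of a type or less RNA per cell, and these cannot be told apart.

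**Figure D1:**
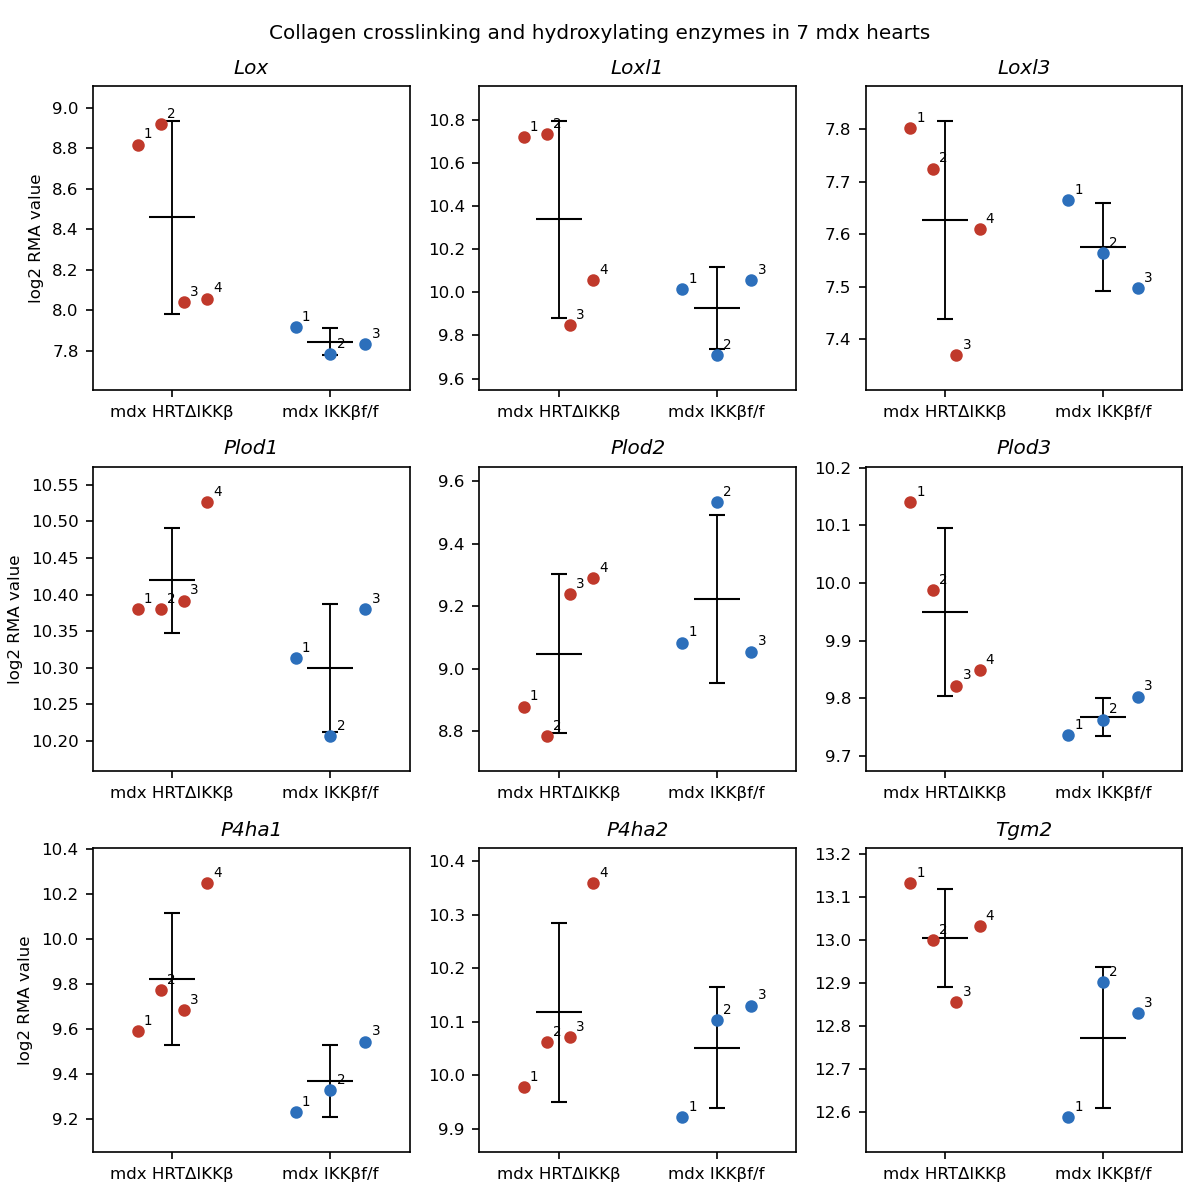
Log2 RMA values (y axis, own scale in each panel) of the 9 measured member genes in 4 mdx HRTΔIKKβ hearts (red) and 3 mdx IKKβf/f hearts (blue), with replicate numbers, means and SD bars. Lox and Loxl1 are highest in mdx HRTΔIKKβ replicates 1 and 2, whereas P4ha1, P4ha2 and Plod1 are highest in replicate 4.

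The hearts and the target gene were checked first. Ikbkb, which encodes IKKβ, read 8.44, 8.86, 8.75 and 8.82 in mdx HRTΔIKKβ hearts, against 8.82, 9.03 and 8.86 in mdx IKKβf/f hearts (difference -0.18 ± 0.11, limma adjusted p = 0.801), and the sources used here do not say whether the probe set lies in the deleted part. By qPCR, the study reported lower Ikbkb expression in mdx HRTΔIKKβ hearts. The 12 cardiomyocyte markers, Myh6 among them (2 higher, 10 lower), had means between 13.30 and 15.04 in mdx HRTΔIKKβ hearts and between 13.32 and 15.06 in mdx IKKβf/f hearts. These ranges run over genes and do not compare the groups gene by gene. Nppa differed by 0.68 ± 0.36 and Mybpc3 by -0.10 ± 0.05, the latter without overlap (limma adjusted p = 0.796 for both). Several of these probe sets lie near the top of the array's range. Single hearts stood apart for markers of skeletal muscle, atrium and airway. Nppa is in both the cardiomyocyte and the atrial list. Skeletal muscle markers (0 of 12 higher) gave a score (mean of gene-centred log2 values) of -1.28 to 0.09 in mdx HRTΔIKKβ hearts, against -1.05 to 3.94 in mdx IKKβf/f hearts, where replicate 1 was the high one. Atrial markers (8 of 8 higher) ran from -0.27 to 1.05 in mdx HRTΔIKKβ hearts, against -1.66 to 0.38 in mdx IKKβf/f hearts, with mdx HRTΔIKKβ replicate 4 highest of all and mdx IKKβf/f replicate 2 lowest, and airway markers (6 of 6 higher) reached 3.36 and 1.90 in mdx HRTΔIKKβ replicates 2 and 4.

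The prolyl 4-hydroxylase subunits came first in the pathway. The alpha subunits encoded by P4ha1 and P4ha2 carry the catalytic site and assemble with protein disulfide isomerase, the product of P4hb. P4ha1 read 9.59, 9.77, 9.68 and 10.25 in mdx HRTΔIKKβ hearts, against 9.23, 9.33 and 9.54 in mdx IKKβf/f hearts. Every mdx HRTΔIKKβ heart lay above every mdx IKKβf/f heart, replicate 1 by a narrow margin and replicate 4 by a wide one. The difference was 0.46 ± 0.16, or 1.37-fold (95% interval 1.06 to 1.78), with an unadjusted p of 0.0229 in limma and an adjusted p of 0.796. Without mdx HRTΔIKKβ replicate 4 it was 0.31 (limma unadjusted p = 0.0161, adjusted p = 0.757). Without mdx IKKβf/f replicate 1 it was 0.39 (limma unadjusted p = 0.0829, adjusted p = 0.905). The second P4ha1 probe set gave 8.54, 8.53, 8.49 and 9.15 in mdx HRTΔIKKβ hearts, against 8.11, 7.93 and 8.22 in mdx IKKβf/f hearts. Here too the groups did not overlap (0.59 ± 0.17, limma unadjusted p = 0.00894, adjusted p = 0.796), and the probe sets followed each other over the 7 hearts (Pearson r = 0.95, Spearman rho = 0.86, as a description of 2 readings of 1 transcript). P4ha2 read 9.98, 10.06, 10.07 and 10.36 in mdx HRTΔIKKβ hearts, against 9.92, 10.10 and 10.13 in mdx IKKβf/f hearts. The groups overlapped, with replicate 4 again highest, and the difference of 0.07 ± 0.10 (95% interval -0.17 to 0.30) was -0.01 without that heart. P4hb had 12.29, 12.30, 12.19 and 12.08 in mdx HRTΔIKKβ hearts, against 12.03, 11.77 and 12.02 in mdx IKKβf/f hearts, again with no overlap (0.28 ± 0.09, limma unadjusted p = 0.0137, adjusted p = 0.796). Its highest values were in replicates 1 and 2 and not in replicate 4, the heart that was highest for both alpha subunits. P4ha3, the remaining alpha subunit gene, differed by 0.16 ± 0.07 (unadjusted p = 0.051) and was dim in every heart, at 4.56 to 4.89.

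In other settings P4ha1, P4ha2, Plod2 and Lox are known to be induced by hypoxia through HIF-1, which binds the core ACGTG or GCGTG. The RefSeq promoter table (GRCm38.p6) held 4 of the members, and the 250 bases before each start site were searched for these letters on both strands, with overlapping matches allowed. Matches are in capitals in the sequences that follow (CACGC or CACGT where the match is on the opposite strand). The sequences are those of all 4 members in the promoter table. P4ha1, P4ha2 and Plod1 shared their highest heart, and Plod3 was highest in another. Of 32851 promoters in the table, 38.6% held a match. P4ha1 had 3 matches, of which 2 lie in the 151 bases printed (the rest of its window overlaps the annotated gene), P4ha2 had 3, Plod1 had 1 and Plod3 had 4. The NF-κB consensus matched once in the window of P4ha1 and in no window of the other 3, against 7.25% of all promoters. These are letter matches and not measured binding sites.
P4ha1, chr10:59323046-59323196, plus strand: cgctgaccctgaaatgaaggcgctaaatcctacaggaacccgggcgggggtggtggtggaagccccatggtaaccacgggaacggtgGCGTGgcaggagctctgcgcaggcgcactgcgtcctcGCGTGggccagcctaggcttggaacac
P4ha2, chr11:54100674-54100923, plus strand: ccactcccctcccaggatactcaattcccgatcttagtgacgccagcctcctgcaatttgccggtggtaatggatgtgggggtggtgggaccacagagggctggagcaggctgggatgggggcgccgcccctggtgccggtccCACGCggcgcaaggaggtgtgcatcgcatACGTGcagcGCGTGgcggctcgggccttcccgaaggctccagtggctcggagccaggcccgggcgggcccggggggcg
Plod1, chr4:147936777-147937026, minus strand: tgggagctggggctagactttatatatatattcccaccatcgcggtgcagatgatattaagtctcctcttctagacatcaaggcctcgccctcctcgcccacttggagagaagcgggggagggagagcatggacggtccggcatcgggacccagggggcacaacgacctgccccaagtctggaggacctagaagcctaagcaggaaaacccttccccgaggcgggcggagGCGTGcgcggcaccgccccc
Plod3, chr5:136986769-136987018, plus strand: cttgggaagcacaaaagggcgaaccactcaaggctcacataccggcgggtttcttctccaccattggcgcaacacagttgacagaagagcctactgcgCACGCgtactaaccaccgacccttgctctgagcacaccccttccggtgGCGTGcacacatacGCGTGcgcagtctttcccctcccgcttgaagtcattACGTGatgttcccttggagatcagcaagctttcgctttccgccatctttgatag

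Genes that HIF-1 is known to induce were read beside these promoters. Of 19 on the array, 12 had the higher mean with IKKβ deleted and 7 the lower one, with a median difference of 0.05. At an unadjusted p of 0.05 there was 1 in each direction, the glucose transporter gene Slc2a1 (0.22 ± 0.08) and the hexokinase gene Hk2 (-0.23 ± 0.07), and Ndrg1 followed (0.20 ± 0.09). None passed the adjusted test. The score of the list in mdx HRTΔIKKβ replicate 4, the heart with the highest P4ha1, was 0.03, against -0.05 to 0.07 over the mdx HRTΔIKKβ hearts and -0.06 to 0.01 over the mdx IKKβf/f hearts.

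The lysyl hydroxylases differed among themselves. Plod3 encodes the enzyme that also attaches sugars to hydroxylysine. It read 10.14, 9.99, 9.82 and 9.85 in mdx HRTΔIKKβ hearts, against 9.74, 9.76 and 9.80 in mdx IKKβf/f hearts. The groups did not overlap, but replicate 3 lay only narrowly above the highest mdx IKKβf/f heart, and the difference was 0.18 ± 0.08 (limma unadjusted p = 0.0624, adjusted p = 0.796). Without mdx HRTΔIKKβ replicate 1 it was 0.12. Plod1, which acts on lysines of the helix, read 10.38, 10.38, 10.39 and 10.53 in mdx HRTΔIKKβ hearts, against 10.31, 10.21 and 10.38 in mdx IKKβf/f hearts. Replicate 4 stood apart and mdx IKKβf/f replicate 3 matched the lowest mdx HRTΔIKKβ values, so that the groups touched (0.12 ± 0.07, unadjusted p = 0.105). Without mdx IKKβf/f replicate 2 the difference was 0.07. The second Plod1 probe set showed -0.04 ± 0.05.

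Plod2, which hydroxylates the telopeptide lysines from which the stable crosslinks of fibrotic collagen form, gave no settled direction. Its probe set with the highest mean read 8.88, 8.78, 9.24 and 9.29 in mdx HRTΔIKKβ hearts, against 9.08, 9.53 and 9.06 in mdx IKKβf/f hearts (-0.18 ± 0.17, 95% interval -0.56 to 0.21, unadjusted p = 0.324). The lowest values came from mdx HRTΔIKKβ replicates 1 and 2 and the highest from mdx IKKβf/f replicate 2. The other probe set read 8.93, 8.87, 9.17 and 9.31 in mdx HRTΔIKKβ hearts, against 9.21, 8.78 and 8.92 in mdx IKKβf/f hearts (0.10 ± 0.14, unadjusted p = 0.494). The probe sets were alike over the mdx HRTΔIKKβ hearts and parted at mdx IKKβf/f replicate 2, which was highest in the first and lowest in the second. Without that heart the differences were -0.02 and 0.01.

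Among the lysyl oxidases, Lox encodes the founding member, whose proenzyme is cleaved outside the cell. It read 8.82, 8.92, 8.04 and 8.06 in mdx HRTΔIKKβ hearts, against 7.92, 7.79 and 7.83 in mdx IKKβf/f hearts. All mdx HRTΔIKKβ hearts lay above all mdx IKKβf/f hearts, but they fell into 2 pairs, with replicates 1 and 2 far above the controls and replicates 3 and 4 close to them. The SD was 0.48 in mdx HRTΔIKKβ hearts and 0.07 in mdx IKKβf/f hearts, and the difference of 0.61 corresponded to 1.53-fold (95% interval 1.05 to 2.23, limma unadjusted p = 0.0318, adjusted p = 0.796). Without replicate 1 it was 0.49 (unadjusted p = 0.0775) and without replicate 2 it was 0.46 (unadjusted p = 0.0675). The second probe set showed the same pairs, at 8.73, 8.74, 7.64 and 7.65 in mdx HRTΔIKKβ hearts, against 7.60, 7.24 and 7.56 in mdx IKKβf/f hearts, and ranked the 7 hearts in the same order (Spearman rho = 1). Its difference was 0.72 ± 0.31 (95% interval -0.01 to 1.45, limma unadjusted p = 0.0525, adjusted p = 0.796). The third, at 4.45, 4.31, 4.27 and 4.16 in mdx HRTΔIKKβ hearts and 4.59, 4.41 and 4.34 in mdx IKKβf/f hearts, lies near the low end of the array's range and did not follow the others (-0.15 ± 0.09). In hearts of other ages, the study reported comparable fibrosis in both genotypes and stated that qPCR of a panel of fibrotic genes matched this. Its primer list holds Lox and Col3a1, but its text gives no values of the panel by gene.

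Loxl1, which is needed for elastic fibre formation, repeated the pairs seen for Lox. It read 10.72, 10.73, 9.85 and 10.06 in mdx HRTΔIKKβ hearts, against 10.02, 9.71 and 10.06 in mdx IKKβf/f hearts. Replicates 1 and 2 lay above every other heart, replicates 3 and 4 lay within the range of the controls, and the groups overlapped (0.41 ± 0.24, 95% interval -0.14 to 0.96, limma unadjusted p = 0.12). Without mdx HRTΔIKKβ replicate 3 the difference was 0.58 (unadjusted p = 0.0257, adjusted p = 0.666) and without mdx HRTΔIKKβ replicate 2 it was 0.28. The second Loxl1 probe set read 7.60, 7.76, 7.04 and 7.17 in mdx HRTΔIKKβ hearts, against 7.08, 7.27 and 7.27 in mdx IKKβf/f hearts (0.19 ± 0.18). Loxl3, a paralog with scavenger receptor domains, read 7.80, 7.72, 7.37 and 7.61 in mdx HRTΔIKKβ hearts, against 7.66, 7.56 and 7.50 in mdx IKKβf/f hearts. Its groups overlapped (0.05 ± 0.11), with replicates 1 and 2 again highest and replicate 3 lowest of all 7. Without mdx HRTΔIKKβ replicate 1 the difference was -0.01.

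Tgm2, the tissue transglutaminase, needs calcium for its crosslinking activity and was measured by 6 probe sets. The one with the highest mean read, to the 4 decimals of the file, 13.1332, 12.9999, 12.8554 and 13.0331 in mdx HRTΔIKKβ hearts, against 12.5873, 12.9016 and 12.8307 in mdx IKKβf/f hearts. Replicate 3 fell below mdx IKKβf/f replicate 2, so that the groups overlapped, and the difference was 0.23 ± 0.10, or 1.17-fold (95% interval 1.01 to 1.37, limma unadjusted p = 0.0426, adjusted p = 0.796). Without mdx IKKβf/f replicate 1, the heart with the high skeletal muscle score, it was 0.14 (unadjusted p = 0.157). Whether that score bears on Tgm2 was not tested. The most separated of the 6 probe sets read 10.261, 10.0959, 9.7806 and 10.0038 in mdx HRTΔIKKβ hearts, against 9.5435, 9.6173 and 9.6815 in mdx IKKβf/f hearts (0.42 ± 0.11, unadjusted p = 0.00528, adjusted p = 0.79). Its difference without mdx IKKβf/f replicate 1 was 0.39 (limma unadjusted p = 0.0233, adjusted p = 0.905). The 5 brighter probe sets differed by 0.23 to 0.42 and each had an unadjusted p under 0.05, whereas the dimmest differed by 0.06 ± 0.11. All read the same gene, and 4 of the 6 carry the suffix that Affymetrix gives to probe sets that may cross-hybridize, so that they do not count as separate evidence.

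**Figure D2:**
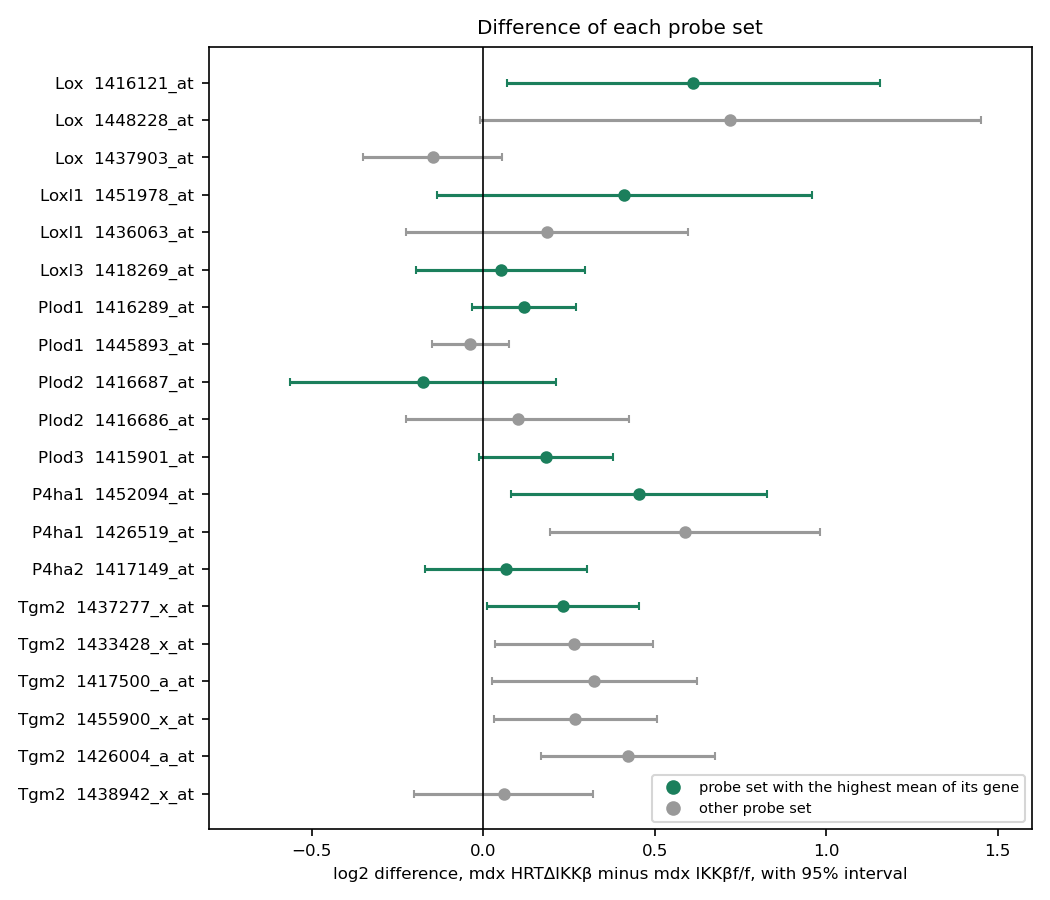
Log2 difference (x axis, mdx HRTΔIKKβ minus mdx IKKβf/f) for each of the 20 probe sets (y axis, grouped by gene), with 95% intervals from limma. Green marks the probe set with the highest mean of each gene and grey the others. Lox, Plod1 and Plod2 each hold probe sets on both sides of 0, while both P4ha1 probe sets and all 6 of Tgm2 lie above it.

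Set against the mean of the 7 hearts, the members followed more than 1 pattern across the mdx HRTΔIKKβ hearts. Lox, Loxl1, Loxl3 and Plod3 were highest in replicates 1 and 2 and close to or under the mean in replicates 3 and 4. In replicate 1 they stood at 0.62, 0.56, 0.20 and 0.27 above the mean, and in replicate 3 at -0.16, -0.32, -0.23 and -0.05. P4ha1, P4ha2 and Plod1 were highest in replicate 4, at 0.62, 0.27 and 0.16, and near the mean in replicate 1, at -0.04, -0.11 and 0.01. Plod2 ran against the lysyl oxidases, with -0.24 and -0.34 in replicates 1 and 2. Counted over the 9 genes, mdx HRTΔIKKβ replicates 1 to 4 held the highest value of 3, 2, 0 and 3 genes, against 0, 1 and 0 genes for mdx IKKβf/f replicates 1 to 3. The lowest value fell in the mdx HRTΔIKKβ hearts for 0, 1, 1 and 0 genes, against 4, 3 and 0 genes in the mdx IKKβf/f hearts. The mean over the 9 genes was 0.17, 0.16, -0.07 and 0.12 in mdx HRTΔIKKβ hearts, against -0.16, -0.12 and -0.09 in mdx IKKβf/f hearts, so that the lowest mdx HRTΔIKKβ heart, replicate 3, was only narrowly above the highest mdx IKKβf/f heart.

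**Figure D3:**
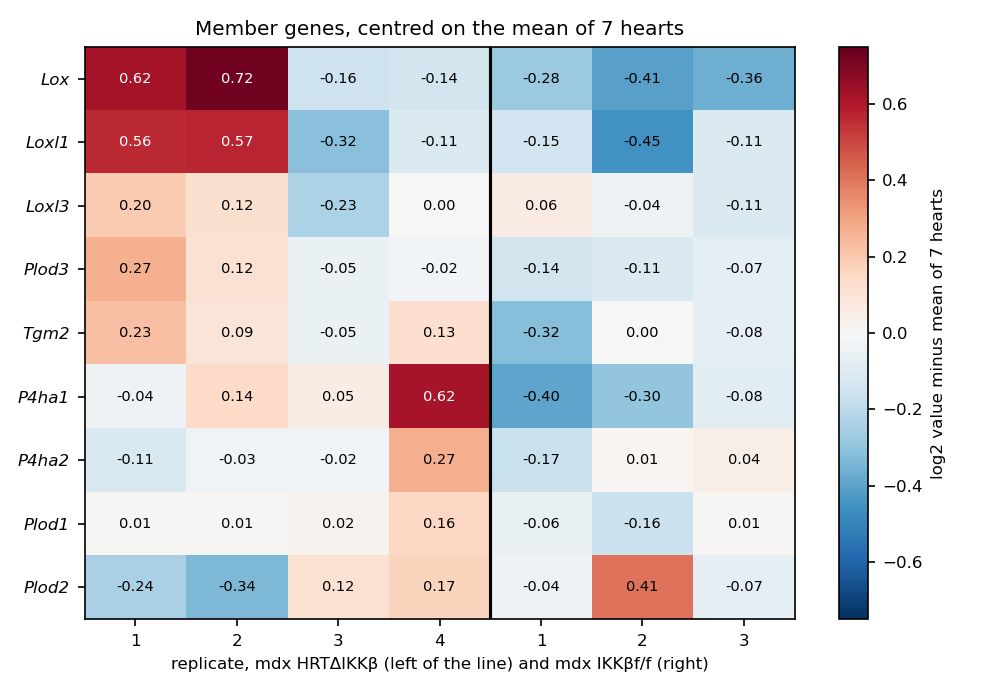
Log2 value of each measured member gene minus its mean over 7 hearts (colour and printed number), with hearts in columns, mdx HRTΔIKKβ left of the line and mdx IKKβf/f right of it. Rows are ordered by the heart in which a gene was highest. Lox reaches 0.72 in mdx HRTΔIKKβ replicate 2 and P4ha1 0.62 in replicate 4.

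The genes most like Lox over the 7 hearts, with 1 probe set for each gene, were H6pd (Pearson r = 0.99, Spearman rho = 1), which encodes a dehydrogenase of the endoplasmic reticulum, Grn (0.99 and 0.89), the progranulin gene, Surf4 (0.99 and 0.82), a cargo receptor gene, Depdc5 (0.98 and 0.82), a regulator of mTORC1, and Tnfrsf1a (0.98 and 0.96), a receptor for TNF. These are the highest of 18191 values and are given as a description. With mdx HRTΔIKKβ replicates 1 and 2 left out, r over the other 5 hearts was 0.99, 0.85, 0.69, 0.60 and 0.76 in the same order.

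The other genes of collagen biosynthesis were read in lists, whose difference from the members was not tested. Of 12 other enzymes and partners in hydroxylation and crosslinking, 10 had a higher mean and 2 a lower one (median 0.13), with 1 in each direction at an unadjusted p of 0.05. Besides P4hb these were led by Colgalt2, a collagen galactosyltransferase gene that was lower (-0.21 ± 0.08, unadjusted p = 0.0313), and P4ha3. F13a1, the blood transglutaminase expressed by macrophages, read 11.47, 11.21, 10.66 and 10.63 in mdx HRTΔIKKβ hearts, against 10.61, 10.34 and 10.63 in mdx IKKβf/f hearts, and was named after its values were seen. Its hearts formed the same pairs as Lox, although replicate 4 was almost level with mdx IKKβf/f replicate 3 (0.47 ± 0.21, unadjusted p = 0.062). Of 10 chaperones and export factors of procollagen, 7 were higher and 3 lower (median 0.08), with 2 and 0 at an unadjusted p of 0.05. Serpinh1, the collagen chaperone HSP47, read 12.14, 11.99, 11.83 and 12.06 in mdx HRTΔIKKβ hearts, against 11.55, 11.67 and 11.79 in mdx IKKβf/f hearts. The groups did not overlap (0.33 ± 0.09, unadjusted p = 0.00699, adjusted p = 0.796). The prolyl isomerase genes Fkbp14 (0.27 ± 0.09) and Ppib (0.20 ± 0.09) followed.

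Of 8 genes for cleavage of procollagen, 6 were higher and 2 lower (median 0.07), led by Tll1 (0.29 ± 0.11), Adamts3 (0.17 ± 0.15) and Pcolce (0.16 ± 0.14), and only Tll1 had an unadjusted p under 0.05 in limma, with dim values of 4.02 to 4.64, near the low end of the array. The substrates came last. Of 10 fibrillar collagen and elastin genes, 7 were higher and 3 lower (median 0.10) and 0 in either direction reached an unadjusted p of 0.05, with Col5a2 (0.30 ± 0.21), Eln (0.19 ± 0.16) and Col3a1 (0.24 ± 0.24) leading. Of 14 fibril partners, 9 were higher and 5 lower (median 0.07), with 3 and 1 at the unadjusted threshold, and the matricellular genes Thbs1 (0.90 ± 0.19), Ccn2 (0.79 ± 0.21) and Thbs2 (-0.22 ± 0.07) led. No gene of these lists passed the adjusted test.

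**Figure D4:**
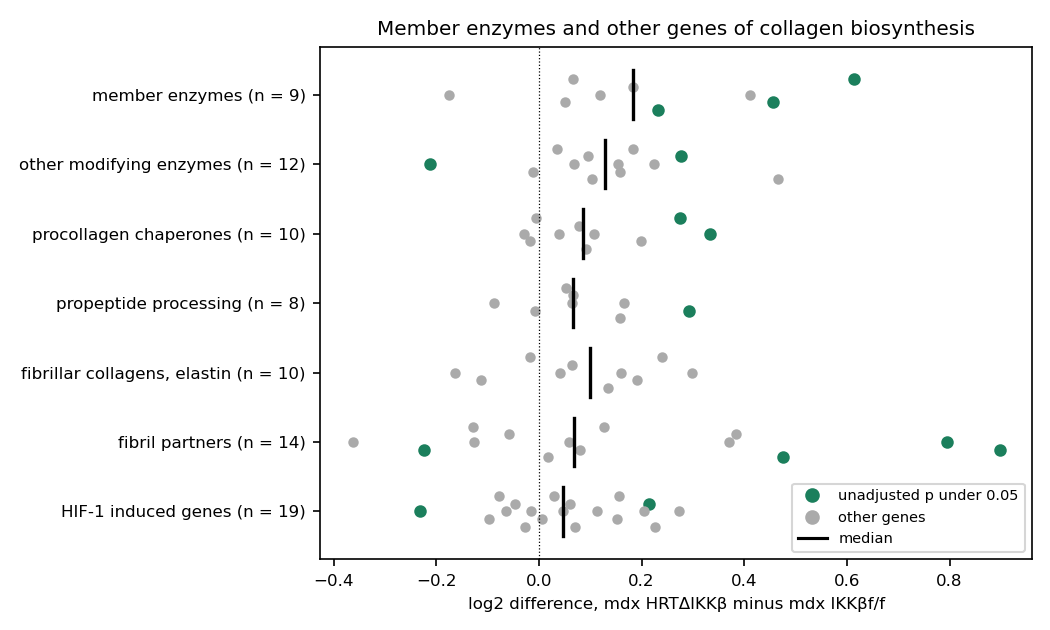
Log2 difference (x axis, mdx HRTΔIKKβ minus mdx IKKβf/f) of each gene in 7 lists (y axis, vertical offsets only separate points), with green for an unadjusted p under 0.05 and a black line for the median. The median is 0.18 for the member enzymes and between 0.05 and 0.13 for the other lists.

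Markers of the cells that make or modify collagen moved with some of these values, and their part in the results was not tested. The mean of the 3 lysyl oxidase genes was 0.46, 0.47, -0.24 and -0.08 in mdx HRTΔIKKβ hearts, against -0.12, -0.30 and -0.19 in mdx IKKβf/f hearts. Activated fibroblast markers stood at 0.40, 0.21, -0.50 and -0.07 in mdx HRTΔIKKβ hearts, against 0.09, -0.46 and 0.33 in mdx IKKβf/f hearts. They were thus highest in mdx HRTΔIKKβ replicate 1, but mdx IKKβf/f replicate 3 was nearly as high while its Lox was low. Of these 8 markers 4 were higher and 4 lower, with Fap (-0.42 ± 0.14) and Ddah1 (-0.23 ± 0.10) at an unadjusted p under 0.05. General fibroblast markers (12 of 14 higher, led by Fbln1 at 0.48 ± 0.18 and Pi16 at 0.41 ± 0.16) ran from -0.14 to 0.20 in mdx HRTΔIKKβ hearts, with replicate 4 highest, and from -0.30 to 0.04 in mdx IKKβf/f hearts. The fibrillar substrates were at 0.16, 0.36, -0.19 and -0.19 in mdx HRTΔIKKβ hearts, against 0.20, -0.30 and -0.04 in mdx IKKβf/f hearts. They shared the high replicates 1 and 2 with Lox, whereas mdx IKKβf/f replicate 1 was high for the substrates and not for Lox.

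Markers of blood and vessel cells were set beside Tgm2. Macrophage markers, of which 11 of 12 were higher, had scores of 0.27, 0.16, -0.10 and 0.21 in mdx HRTΔIKKβ hearts, against -0.13, -0.28 and -0.13 in mdx IKKβf/f hearts. Replicate 1 was the highest heart for these markers and for Tgm2, but mdx IKKβf/f replicate 2 had the lowest macrophage score of the 7 hearts and the highest Tgm2 value of its group. Lyve1 (1.04 ± 0.14) and C1qa (0.41 ± 0.11) led the list, and the 1 lower marker was Ccr2 (-0.41 ± 0.14), named after its values were seen. Endothelial markers (6 of 10 higher, led by Pecam1 at 0.30 ± 0.07 and Vwf at 0.65 ± 0.21) ran from -0.10 to 0.19 in mdx HRTΔIKKβ hearts, against -0.15 to 0.08 in mdx IKKβf/f hearts. Lymphocyte markers (9 of 9 higher) ran from 0.07 to 1.49 in mdx HRTΔIKKβ hearts, against -1.02 to -0.14 in mdx IKKβf/f hearts. Smooth muscle markers (2 of 10 higher) ran from -0.13 to -0.00 in mdx HRTΔIKKβ hearts, against -0.30 to 0.76 in mdx IKKβf/f hearts, where replicate 3 was highest. Cartilage and valve markers (4 of 8 higher) ran from -0.69 to 0.27 in mdx HRTΔIKKβ hearts, against -0.33 to 0.31 in mdx IKKβf/f hearts, with mdx HRTΔIKKβ replicate 3 lowest. Here too no gene passed the adjusted test.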

How the data were processed

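Total RNA from 7 whole hearts was hybridized to Affymetrix Mouse Genome arrays. The deposited log2 values were computed by the authors with RMA (background correction, quantile normalization and a summary per probe set) in Partek, and independently in Affymetrix Expression Console. Versions, and which program made the table, are not given in the sources used here. RMA compresses folds of dim probe sets and removes global shifts. The number of arrays limits the precision.

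All 45037 probe sets were fitted together in limma 3.58.1 (R 4.3.3; lmFit, eBayes, two-sided, Benjamini-Hochberg adjustment) with differences taken as mdx HRTΔIKKβ less mdx IKKβf/f and no filter. The methods name no test of single probe sets for the arrays. The fit was tested on simulated data with known differences and noise drawn independently for each value. How often differences of the members' size were recovered is not given here. Genes were named through the platform annotation (34945 probe sets with 1 gene, 932 with several, 9160 with none) and each gene was read from its probe set of highest mean over the 7 hearts. The hearts are biological replicates according to the study. Replicate numbers 1 to 3 occur in both groups, but the labels give them no shared origin, and the fit had no block.

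The members and lists were chosen with earlier results of these data known. Of 189 entries in 17 other lists, 182 were on the array. Named were all members, up to 3 genes of lowest unadjusted p from every collagen or hypoxia list, up to 2 in each marker list, and the 5 genes most correlated with Lox. F13a1 and Ccr2 were added after their values were seen. Alternatives were other array scaling, filters on dim or cross-hybridizing probe sets, trended or robust variance, array weights, the methods' t-test, a replicate block, the median over probe sets, and each heart left out.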

Additional observations from a re-analysis of the deposited data

Results flagged for a closer look

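In the group of 4 mdx HRTΔIKKβ hearts, each of the 20 probe sets was checked for a highest or lowest heart whose gap to its neighbour was a large part of the group's range (above Dixon's 95% limit). This was so for 2 probe sets, where chance gives about 5% of groups. For the Plod1 probe set with the higher mean, replicate 4 (10.53) stood apart with a ratio of 0.918. For the second P4ha1 probe set, replicate 4 (9.15) stood apart with a ratio of 0.927. Both values came from the same heart. It had the highest atrial (1.05) and fibroblast (0.20) marker scores of the 7 hearts and an airway score of 1.90, below the 3.36 of replicate 2, which did not stand apart for either probe set. The part of these tissues in the values was not tested.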

How the results depend on the processing

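No member passed the adjusted threshold under any of 17 alternatives, and the median difference stayed between 0.13 and 0.23. The groups did not overlap in 3 to 4 members under the 12 alternatives for which this was counted. For a given probe set, leaving out a heart cannot make separated groups overlap. Those alternatives could thus only keep or raise the count and do not test it. The count at an unadjusted p of 0.05 (3 members) was 0 with the methods' t-test and ranged from 0 to 5 over left-out hearts, the smallest without mdx IKKβf/f replicate 1 and the largest without mdx HRTΔIKKβ replicate 3. With the replicate number as a block, which leaves mdx HRTΔIKKβ replicate 4 without a partner, the count was 2 (Lox and P4ha1) and P4ha2 turned to -0.01. Deviations of hearts with the same number correlated at -0.08, -0.38 and -0.04. Hearts of unlike number were not compared, so these values cannot decide whether the numbers pair the hearts. The block changed no adjusted call. Over left-out hearts, signs also turned for Loxl3 (-0.0073 without mdx HRTΔIKKβ replicate 1, up to 0.137), for P4ha2 (-0.0147 without mdx HRTΔIKKβ replicate 4, up to 0.113), and for Plod2 (-0.26 up to 0.0051 without mdx IKKβf/f replicate 2), where its other probe set then had the higher mean. All other member differences kept their sign. Dim values, such as the third Lox probe set, are limited by signal over background, which RMA values do not show.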
